A study of Mus musculus with 15 samples.

Results

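Plasmablasts (Pb) cultured with GSK343, an inhibitor of the histone methyltransferase EZH2, were compared with Pb cultured with the solvent DMSO. The comparison took the 6 Pb libraries of a series of 15, 3 per group, and all 21669 genes of the expression table that carry a symbol, out of 21761 in the table. Of these, 11299 reached 1 RPKM in at least 3 of the 15 libraries and were tested. RPKM, reads per kilobase of gene length and per 1000000 counted reads, is the scale of every level given here. Both groups came from CD43- splenic B cells of wild-type female C57BL/6J mice of 6 to 9 weeks, which were stimulated ex vivo for 3 days and sorted for the surface protein CD138. The DMSO group was stimulated with LPS, Il2 and Il5. The labels of the 3 GSK343 libraries give LPS, Il2 and Il6 as the stimulation, whereas the culture protocol of the same libraries gives Il5, so GSK343 and a change of cytokine cannot be told apart from the labels alone. The remaining 9 libraries, of naive B cells (nB) and of activated B cells (actB, B220+GL7+CD138-) cultured with either treatment, entered the model and served for 1 comparison. The study describes the actB cultures as stimulated with LPS, Il2 and Il5.

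EZH2 is the catalytic subunit of Polycomb repressive complex 2 (PRC2), which places trimethylation on lysine 27 of histone H3, a mark of silenced genes. GSK343 competes with the methyl donor of the enzyme, so that it lowers the mark without removing the protein. Plasmablasts are dividing B cells that have begun to secrete antibody. They switch off the B cell transcription factor *Pax5* and the receptors it maintains, switch on *Prdm1* and *Xbp1*, and enlarge the endoplasmic reticulum (ER) and its folding machinery. The histone mark itself was not measured in these libraries.

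The Pb libraries held 19421830 to 22825899 reads. The sum of 8 plasmablast markers, *Sdc1*, *Prdm1*, *Irf4*, *Xbp1* and *Jchain* among them, was 4697 to 4945 RPKM with DMSO and 4797 to 5236 RPKM with GSK343, so both groups carried the markers of their label. Of 36 myeloid markers, 29 stayed under 1 RPKM in all 6 libraries and 7 of those were at 0. Replicate 2 stood apart within each group. The chi-square per degree of freedom between libraries of a group was 3.57 to 3.68 for replicate 1 against 3, and 7.62 to 11.4 where replicate 2 took part. The titles number the replicates m1 to m3 without saying whether a number is an animal, so the p-values measure the spread between these libraries. In bulk RNA a change in the make-up of the sorted cells and a change of RNA per cell cannot be told apart.

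With GSK343, 893 genes rose (7.90% of those tested) and 565 fell (5.0%), 1458 in all (12.9%), by limma on log2(RPKM + 0.25) with Benjamini-Hochberg adjusted p under 0.05. Most changes were small. Of the genes that rose, 69 did so at least 2-fold, 169 by 1.5- to 2-fold and 655 by less, with a median log2 fold change of 0.39. Of those that fell, 13 did so at least 2-fold, 60 by 1.5- to 2-fold and 492 by less, with a median of -0.31. Genes that rose had a median level of 6.88 RPKM in the DMSO libraries and those that fell 17.1 RPKM. All 3 same-numbered pairs moved the same way for 893 of 893 and 562 of 565 genes. The same libraries made the calls, so neither this agreement nor a lack of overlap between groups is separate evidence. Over all genes tested, the 3 GSK343 libraries lay above all 3 DMSO libraries in 18.8% and below them in 15.3%. With the replicate numbers of the titles as a block, 1553 genes rose (13.7%) and 1227 fell (10.9%), including all 1458. Calls and adjusted p-values in the text are of the fit without the block unless another fit is named. A gene that did not pass there could therefore pass with the block. edgeR on reads recovered from the table called 866 higher (7.77%) and 634 lower (5.69%) of 11146 genes. Leaving out 1 library gave between 472 and 785 higher and between 218 and 519 lower. The smallest counts of both directions came without GSK343 replicate 3.

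**Figure D1:**
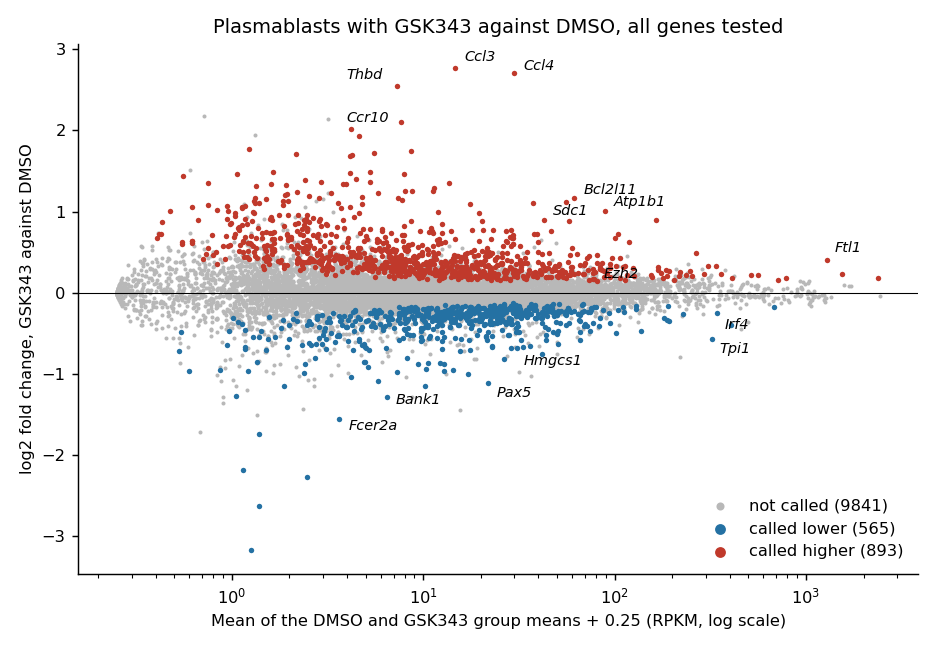
Each point is 1 of 11299 genes, with the mean level over the 6 Pb libraries plus 0.25 on the horizontal axis (RPKM, log scale) and the log2 fold change of GSK343 against DMSO on the vertical axis. Coloured points are the 893 genes called higher and 565 called lower, of which 69 and 13 changed at least 2-fold.

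*Ezh2* (chr6:47480273-47545340, mm9, minus strand) was at 80.3, 71.2 and 81.4 RPKM in DMSO replicates 1, 2 and 3 and 80.8, 79.4 and 87.5 RPKM with GSK343 (values of other genes follow the same order, and gene positions are mm9). The groups overlapped, and the log2 fold change was 0.09 ± 0.08 SE, adjusted p = 0.531. Since GSK343 acts on the enzyme, the transcript does not check inhibition. None of 12 PRC2 genes passed the test in limma or in edgeR, and 2 did at an unadjusted p under 0.05. Their log2 fold changes lay between -0.14 and 0.16. *Suz12*, the scaffold subunit, was at 89.3, 87.1 and 87.6 RPKM with DMSO and 80.2, 76.1 and 83.3 RPKM with GSK343, and fell under the replicate block (log2 fold change -0.14, adjusted p = 0.163, and 0.0278 with the block). Polycomb repressive complex 1 (PRC1), which binds the PRC2 mark, had 4 of 21 members higher and 3 lower, against 7.90% and 5.0% of all genes. The 4 rises were called with each library left out, whereas the falls numbered 0 without GSK343 replicate 1, GSK343 replicate 3 or DMSO replicate 3, 1 without DMSO replicate 1, and 2 otherwise. *Bmi1*, a core subunit, rose from 14.5, 16.6 and 13.8 RPKM to 22.1, 20.5 and 21.8 RPKM (log2 0.52 ± 0.08 SE, adjusted p = 0.00170), and *Scmh1*, a binding partner of the complex, rose from a mean of 2.998 ± 0.160 to 4.16 ± 0.201 RPKM (SD, n = 3). *Phc2*, a polymerising subunit, fell by a log2 of 0.33, a call lost with DMSO replicate 1 or 3 or GSK343 replicate 1 or 3 left out (adjusted p up to 0.0717). Of 14 H3K27 demethylases and H3K4 methyltransferases tested, 2 fell (14.3%, against 5.0% of all genes) and none rose, with 1 to 2 lower with 1 library left out. *Kdm6b*, a demethylase that removes the mark, fell from 3.78, 3.77 and 3.32 RPKM to 2.50, 2.61 and 2.35 RPKM (log2 -0.50 ± 0.08 SE, adjusted p = 0.00297), with no overlap between groups. A transcript of the opposite strand overlaps exons of *Ezh2* and of *Suz12*, and whether reads were counted by strand is not given in the sources used here.

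Chemokines were among the largest rises. *Ccl3* (chr11:83461346-83462857), a chemokine that draws in monocytes and T cells, was at 3.15, 2.70 and 4.55 RPKM with DMSO and 27.4, 16.6 and 32.2 RPKM with GSK343 (log2 2.77 ± 0.27 SE, adjusted p = 1.34e-04). *Ccl4* (chr11:83476086-83478185), its neighbour and a related chemokine, was at 6.53, 5.26 and 11.9 RPKM and 49.7, 36.8 and 67.4 RPKM (log2 2.70 ± 0.33 SE, adjusted p = 3.91e-04). In both genes the lowest GSK343 library, replicate 2, lay above every DMSO library. *Ccl22*, a CCR4 ligand, rose from 8.83, 4.32 and 6.37 to 17.4, 12.2 and 16.6 RPKM (log2 1.25 ± 0.21 SE, adjusted p = 0.00298). *Ccl5* rose by a log2 of 1.75 ± 0.46 (SE, adjusted p = 0.0258), but the call was lost with DMSO replicate 1 or 3 or GSK343 replicate 1, 2 or 3 left out (adjusted p up to 0.0993).

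Among receptors, *Ccr10* (chr11:101034311-101036757), which directs antibody-secreting cells to mucosal tissue, was at 2.65, 2.33 and 2.93 RPKM with DMSO and 11.7, 11.5 and 13.1 RPKM with GSK343 (log2 2.10 ± 0.12 SE, adjusted p = 2.63e-06). The spread between libraries of a group was small beside the gap between the groups. The B cell follicle receptor *Cxcr5* moved the other way, from 47.6, 55.8 and 45.3 to 30.7, 43.7 and 36.7 RPKM (log2 -0.43 ± 0.13 SE, adjusted p = 0.0437), a call lost with DMSO replicate 1, 2 or 3 or GSK343 replicate 1 or 3 left out (adjusted p up to 0.171). Of 28 chemokines and chemokine receptors tested, 6 rose (21.4%, against 7.90% of all genes) and 3 fell (10.7%, against 5.0%). With 1 library left out 4 to 5 rose, and 4 fell without GSK343 replicate 2 and 1 without any other.

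Anticoagulant, protease and complement genes were also called higher. Of 16 tested, 7 rose (43.75%, against 7.90% of all genes) and none fell (against 5.0%). Leaving out 1 library gave 5 to 8 higher. The median log2 fold change was 0.35 against 0.003 over all genes. *Thbd* (chr2:148230207-148233924), thrombomodulin, a surface receptor that turns thrombin towards activating protein C, was at 1.96, 1.37 and 2.31 RPKM with DMSO and 13.6, 9.26 and 13.7 RPKM with GSK343 (log2 2.55 ± 0.17 SE, adjusted p = 9.44e-06). The groups did not overlap. *Plau*, the urokinase plasminogen activator, rose from 0.471, 0.387 and 0.962 to 2.48, 1.21 and 2.83 RPKM (log2 1.49 ± 0.30 SE, adjusted p = 0.00723), and its receptor *Plaur* from a mean of 0.410 ± 0.113 to 0.980 ± 0.0725 RPKM (SD, n = 3). *Anxa5*, which binds exposed phosphatidylserine, rose by a log2 of 0.48 ± 0.06 SE, adjusted p = 4.22e-04.

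Among the other large rises, *Emp1*, an epithelial membrane protein, rose from 1.69, 1.21 and 1.36 to 7.04, 5.42 and 7 RPKM (log2 2.01 ± 0.18 SE, adjusted p = 1.09e-04). *Axl*, a receptor kinase for Gas6 that takes part in clearing dying cells, rose by a log2 of 1.40 ± 0.26 SE, adjusted p = 0.00480, and *Spp1*, osteopontin, a secreted integrin ligand, by 1.46 ± 0.13 SE, adjusted p = 1.09e-04. *Cysltr2*, a leukotriene receptor, rose by 1.49 ± 0.20 SE, adjusted p = 8.51e-04, and *P2rx3*, an ATP-gated cation channel, by 1.47 ± 0.17 SE, adjusted p = 3.17e-04. Exons of *P2rx3* overlap those of *Ssrp1* on the opposite strand. *Lrrn3*, *Tsc22d1*, *Osbpl3*, *Car2*, *Adgrl2* and *Slc1a1* rose by log2 fold changes of 1.34 to 1.72. All calls of this paragraph held with each of the 6 libraries left out.

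*Fcer1g*, the signalling chain that Fc receptors share, rose from 1.72, 1.78 and 1.68 to 7.39, 5.39 and 5.87 RPKM (log2 1.70 ± 0.11 SE, adjusted p = 6.16e-06). This gene is also a myeloid marker. Over the whole list of 36 myeloid markers the summed level was 102 to 111 RPKM with DMSO and 99.1 to 105 RPKM with GSK343, and without *Fcer1g* it was 99.9 to 109 and 91.7 to 100 RPKM. Of 25 myeloid markers tested, *Fcer1g* rose and 1 fell. *Lyz2*, lysozyme, at 166 RPKM in nB, was at 0.196 to 0.440 RPKM in the DMSO and 0.430 to 0.759 RPKM in the GSK343 plasmablasts.

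**Figure D2:**
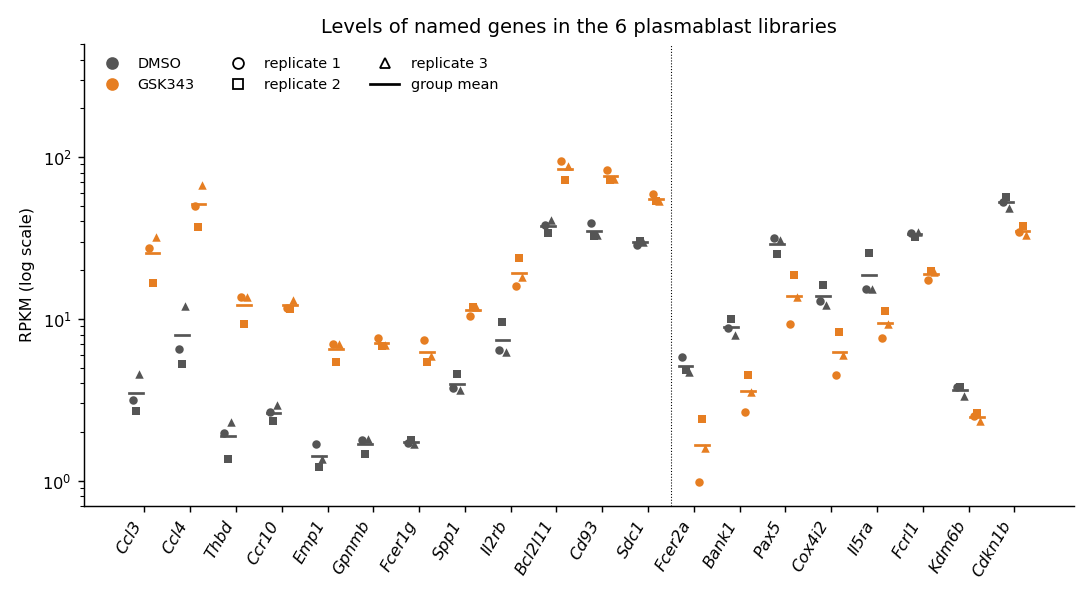
Levels of 20 genes in the 6 Pb libraries (RPKM, log scale), with each point 1 library, marker shapes for replicates 1 to 3 and bars for group means; the dotted line separates 12 genes called higher from 8 called lower. *Ccl3*, *Ccr10* and *Thbd* show no overlap between groups, and for *Pax5* the GSK343 replicate 2 (18.6 RPKM) lies nearest the DMSO libraries.

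Genes of B cell identity were called lower more often than higher. Of 40 tested, 11 fell (27.5%, against 5.0% of all genes) and *Bcl6* rose (2.5%, against 7.90%), with a median log2 fold change of -0.15. *Pax5* (chr4:44544017-44724318), which keeps cells in the B lineage, was at 31.5, 25.2 and 30.5 RPKM with DMSO and 9.28, 18.6 and 13.6 RPKM with GSK343 (log2 -1.11 ± 0.18 SE, adjusted p = 0.00220). All GSK343 libraries lay below all DMSO libraries, and replicate 2 moved least. A non-coding gene on the opposite strand overlaps its exons. *Fcer2a*, the low-affinity IgE receptor CD23, fell from 5.85, 4.84 and 4.70 to 0.981, 2.40 and 1.59 RPKM (log2 -1.56 ± 0.25 SE, adjusted p = 0.00217). *Bank1*, an adaptor of the B cell receptor, fell from 8.72, 9.96 and 7.97 to 2.66, 4.49 and 3.53 RPKM (log2 -1.28 ± 0.14 SE, adjusted p = 2.27e-04).

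*Ms4a1*, which encodes CD20, fell from 61.8, 58.9 and 62.02 to 31.8, 44.3 and 43.4 RPKM (log2 -0.63 ± 0.11 SE, adjusted p = 0.00369), and *Cr2*, the complement receptor CD21, from 7.56, 7.15 and 8.17 to 4.42, 4.23 and 5.47 RPKM (log2 -0.67 ± 0.10 SE, adjusted p = 0.00149). *Fcrl1* fell by a log2 of 0.82 and *Btk*, the kinase of B cell receptor signalling, by 0.25. *Ebf1*, a partner of *Pax5*, fell by a log2 of 0.60 (adjusted p = 0.0154), a call lost with DMSO replicate 1 or 3 or GSK343 replicate 1 or 3 left out (adjusted p up to 0.0667). Other members did not pass. *Cd79a*, a chain of the B cell receptor, was at 437, 463 and 428 RPKM with DMSO and 372, 438 and 409 RPKM with GSK343 (adjusted p = 0.299). With the block 20 members fell and 2 rose, where 10.9% of all genes fell and 13.7% rose. With the block on the Pb libraries alone 9 fell and 2 rose, and leaving out 1 library gave 9 to 16 lower. The summed level of 9 markers of B cells that have not differentiated was 275 to 313 RPKM with DMSO and 201 to 267 RPKM with GSK343, so the ranges did not overlap, and its part in the fall of the list was not tested.

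Of 30 plasma cell regulators and surface markers, 7 rose (23.3%, against 7.90% of all genes) and 2 fell (6.67%, against 5.0%). Their median log2 fold change was 0.10. With the replicate block 10 rose and 5 fell, where 13.7% of all genes rose and 10.9% fell. *Sdc1* (chr12:8778129-8800521), the syndecan CD138 by which the cells were sorted, rose from 28.8, 30.4 and 29.8 to 58.8, 53.3 and 53.7 RPKM (log2 0.89 ± 0.11 SE, adjusted p = 5.75e-04). *Cd93*, a receptor that long-lived plasma cells need, rose from 39.1, 32.6 and 33.1 to 83.1, 72.1 and 73.5 RPKM (log2 1.12 ± 0.12 SE, adjusted p = 1.80e-04). The transcription factors of the plasma cell programme were not called higher in the fit without the block. *Prdm1*, which encodes Blimp-1, was at 116, 121 and 126 RPKM with DMSO and 116, 112 and 124 RPKM with GSK343, with overlapping groups (log2 -0.04 ± 0.08 SE, adjusted p = 0.797). *Xbp1*, driver of the secretory programme, was at 892, 979 and 996 and 984, 1044 and 1056 RPKM (log2 0.11 ± 0.06 SE, adjusted p = 0.303). Each GSK343 library was above the DMSO library of its number for *Xbp1*.

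*Irf4*, which is required for plasma cells, fell from 358, 391 and 367 to 300.3, 323 and 315 RPKM (log2 -0.25 ± 0.06 SE, adjusted p = 0.0225), a call lost with DMSO replicate 2 or 3 or GSK343 replicate 1 or 3 left out (adjusted p up to 0.0903). The B lineage zinc finger gene *Ikzf3* fell from 51.2, 47.03 and 48.3 to 42.6, 40.8 and 41.5 RPKM (log2 -0.23 ± 0.04 SE, adjusted p = 0.00614). *Jchain*, the joining chain of secreted IgM, was at 1671, 1636 and 1697 RPKM with DMSO and 1670.0, 1776 and 1848 RPKM with GSK343 (adjusted p = 0.657). *Mzb1*, an ER helper of antibody assembly, did not pass either (adjusted p = 0.558).

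Genes of cholesterol synthesis and uptake had the largest share of falls among the lists of at least 15 tested genes. Of 31 members, 20 fell and 3 rose, against 5.0% and 7.90% of all genes, and the median log2 fold change was -0.28. Leaving out 1 library gave 15 to 20 lower. The list follows the mevalonate pathway and the SREBP2 system that switches it on when membrane sterol is low. The early enzyme *Hmgcs1* fell from 37.4, 42.4 and 33.5 to 21, 24.5 and 24.6 RPKM (log2 -0.69 ± 0.09 SE, adjusted p = 8.24e-04), and every GSK343 library was below every DMSO library.

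Later steps fell as well. *Idi1*, which isomerises the isoprenoid unit, went from 123, 119 and 115 to 82.8, 83.2 and 88.02 RPKM (log2 -0.49 ± 0.10 SE, adjusted p = 0.00651). *Cyp51*, lanosterol demethylase, went from 78.8, 81.1 and 71.7 to 53.9, 55.97 and 54.7 RPKM (log2 -0.49 ± 0.05 SE, adjusted p = 1.81e-04), and *Msmo1*, the sterol methyl oxidase of a later step, from 42.98, 46.7 and 41.7 to 25.6, 29.2 and 28.5 RPKM (log2 -0.65 ± 0.06 SE, adjusted p = 1.51e-04). *Sqle*, *Lss*, *Fdft1*, *Dhcr7*, *Sc5d*, *Tm7sf2*, *Hsd17b7* and *Nsdhl* had log2 fold changes of -0.25 to -0.47, all called, and *Nsdhl* lost its call with GSK343 replicate 1 left out (adjusted p up to 0.0592). *Mvk* did not pass, with a log2 fold change of -0.28 (adjusted p = 0.107).

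Regulators of the pathway moved in the same list. *Srebf2*, which encodes SREBP2, fell by a log2 of 0.21 (adjusted p = 0.0180), a call lost with DMSO replicate 2 or GSK343 replicate 1 or 3 left out (adjusted p up to 0.0796). *Insig1*, which retains SREBP2 in the ER and is its target, fell by a log2 of 0.33 (adjusted p = 0.0176), a call lost with GSK343 replicate 1 or 3 left out (adjusted p up to 0.0755). Among the 3 members that rose, *Abca1* and *Abcg1* export cholesterol, and *Abcg1* rose from 9.01, 8.25 and 8.82 to 14.6, 18.8 and 14.6 RPKM (log2 0.85 ± 0.15 SE, adjusted p = 0.00435). *Abca1* rose from 2.58, 2.98 and 2.38 to 5.30, 8.35 and 5.59 RPKM (log2 1.18 ± 0.28 SE, adjusted p = 0.0173), a call lost with DMSO replicate 1 or 3 or GSK343 replicate 2 left out (adjusted p up to 0.0613). *Scap*, the escort of SREBP2, rose by a log2 of 0.49 ± 0.10 SE, adjusted p = 0.00726, and exons of a gene on the opposite strand overlap it.

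The promoter of *Hmgcs1* is shown because it was the only window of the list that held the sterol element searched. The letters were TCACNCCAC, on both strands, in RefSeq windows of 300 bases (250 before to 50 after the start, build GRCm38.p6). The element was in 1.24% of 32851 windows, in 1.35% of the tested genes with a window, and in 1 of the 21 list members that have a window. In chr13:119690101-119690400, plus strand, the match in capitals begins 137 bases before the start. It is a match of letters and not a measured site.
*Hmgcs1*: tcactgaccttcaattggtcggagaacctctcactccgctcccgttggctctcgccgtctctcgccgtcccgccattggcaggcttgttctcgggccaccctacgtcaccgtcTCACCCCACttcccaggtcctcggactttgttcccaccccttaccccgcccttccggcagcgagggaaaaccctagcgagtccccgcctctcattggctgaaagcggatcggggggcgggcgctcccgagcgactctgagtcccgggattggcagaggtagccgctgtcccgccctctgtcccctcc

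**Figure D3:**
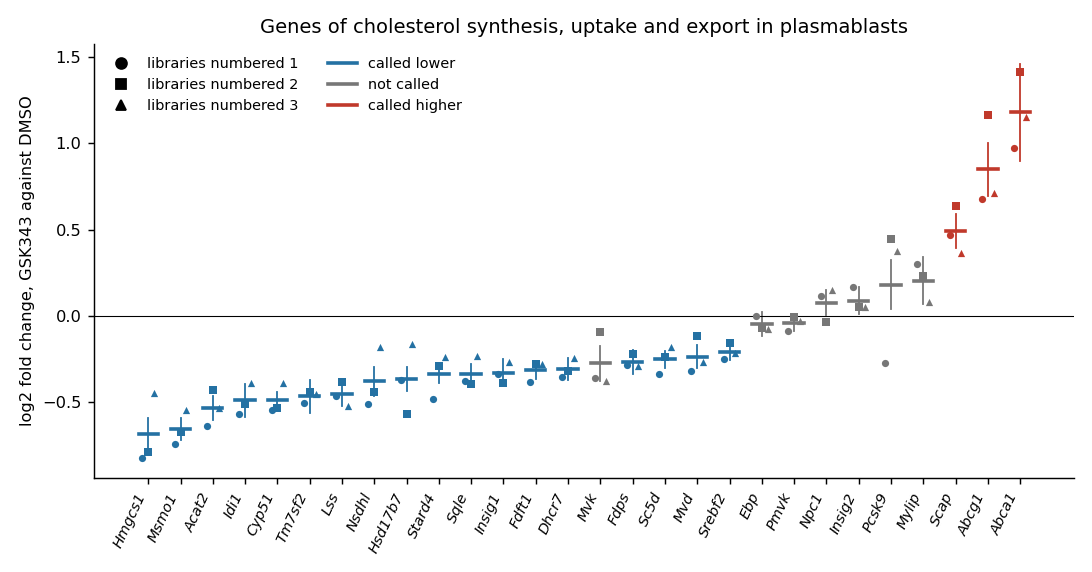
Log2 fold changes of 28 of the 31 genes of cholesterol synthesis and uptake in Pb, GSK343 against DMSO; bars are the fitted value ± 1 SE and the markers are the fold changes of the 3 same-numbered pairs. Most bars lie below 0 (18 of those plotted are called lower), and *Abca1*, *Abcg1* and *Scap* are called higher.

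Of 19 genes of fatty acid synthesis, 2 fell (10.5%, against 5.0% of all genes) and none rose (6 and 2 at an unadjusted p under 0.05). The falls numbered 4 without GSK343 replicate 2 and 1 without any other library. The elongase *Elovl6* fell from 15.7, 17.1 and 14.2 to 11.4, 11.3 and 12.1 RPKM (log2 -0.42 ± 0.07 SE, adjusted p = 0.00381). *Fasn*, the synthase, fell by a log2 of 0.29 (adjusted p = 0.0483), a call lost with any 1 library left out (adjusted p up to 0.163).

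Glycolysis and the pentose phosphate pathway had 8 of 30 members lower (26.7%, against 5.0% of all genes) and none higher, with a median log2 fold change of -0.22. The count of falls rested on the libraries chosen. With GSK343 replicate 2 left out it was 14, without DMSO replicate 2 it was 7, without DMSO replicate 3 it was 4, without DMSO replicate 1 or GSK343 replicate 3 it was 2, and without GSK343 replicate 1 it was 1. With the replicate block 16 fell and 2 rose, where 10.9% of all genes fell and 13.7% rose. With the block on the Pb libraries alone 6 fell and 2 rose. *Tpi1*, triosephosphate isomerase, was at 411, 368 and 366 RPKM with DMSO and 203, 333 and 252 RPKM with GSK343 (log2 -0.57 ± 0.15 SE, adjusted p = 0.0263), a call lost with DMSO replicate 1, 2 or 3 or GSK343 replicate 1 or 3 left out (adjusted p up to 0.0968). *Ldha*, lactate dehydrogenase, was at 483, 424 and 461 and 289, 409 and 354 RPKM (log2 -0.39 ± 0.10 SE, adjusted p = 0.0255), lost with DMSO replicate 1 or 3 or GSK343 replicate 1 or 3 left out (adjusted p up to 0.0973). In both genes GSK343 replicate 2 lay just below the DMSO libraries and replicates 1 and 3 well below them. *Hk2*, the hexokinase that begins the pathway, fell from 30.9, 30.9 and 28.6 to 21.7, 25.2 and 22.97 RPKM (log2 -0.37 ± 0.08 SE, adjusted p = 0.0115), lost with GSK343 replicate 1 left out (adjusted p up to 0.0538). *Rpe*, of the pentose phosphate branch, fell by a log2 of 0.28 in every fit with a library left out. *Gapdh* and *Pkm* did not pass (adjusted p = 0.231 and 0.791). Exons of *Tpi1* overlap a gene of the opposite strand.

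Of 49 genes of the unfolded protein response and ER folding, 8 rose (16.3%, against 7.90% of all genes) and none fell, with a median log2 fold change of 0.082 (14 and 4 at an unadjusted p under 0.05). The count rested on all 6 libraries, at 0 without GSK343 replicate 1, DMSO replicate 3 or GSK343 replicate 3, at 1 without DMSO replicate 1, at 3 without DMSO replicate 2 and at 5 without GSK343 replicate 2. At an unadjusted p under 0.05, 11 to 13 rose in the fits that called none. edgeR on the recovered reads called 5. Falls appeared in other fits, with 2 members lower without GSK343 replicate 2. With the replicate block 10 rose and 2 fell, where 13.7% of all genes rose and 10.9% fell. The log2 fold changes of the list lay between -0.56 and 0.33. *Calr*, the calcium-binding chaperone calreticulin, went from 1414, 1441 and 1388 to 1658, 1640.0 and 1691 RPKM (log2 0.23 ± 0.06 SE, adjusted p = 0.0230), a call lost with DMSO replicate 1 or 3 or GSK343 replicate 1 or 3 left out (adjusted p up to 0.0867) and under quantile normalization (adjusted p = 0.619). *Hsp90b1*, the ER form of HSP90, went from 2222, 2244 and 2207 to 2429, 2537 and 2606 RPKM (log2 0.18 ± 0.05 SE, adjusted p = 0.0485), a call lost with any 1 library left out (adjusted p up to 0.168) and in edgeR (adjusted p = 0.0544). These were among the largest gains in absolute level, though each fold change was small. *Hspa5*, the chaperone BiP and a reference target of the response, was at 952, 1022 and 963 RPKM with DMSO and 1054, 1107 and 1097 RPKM with GSK343 and did not pass (log2 0.15 ± 0.06 SE, adjusted p = 0.101).

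Transport out of the ER had 7 of 39 members higher (17.9%, against 7.90% of all genes) and none lower, and 2 to 4 higher with 1 library left out. *Mcfd2*, a cargo receptor subunit, rose from 37.2, 39.2 and 39.8 to 47.95, 48.6 and 45.04 RPKM (log2 0.28 ± 0.05 SE, adjusted p = 0.00617). N-glycosylation had 4 of 42 members higher (9.52%, near the 7.90% of all genes) and none lower, with 1 to 4 higher with 1 library left out. With the replicate block 10 rose, where 13.7% of all genes did. *Gmppb*, which makes the mannose donor, rose by a log2 of 0.25 ± 0.05 SE, adjusted p = 0.0105, lost with GSK343 replicate 1 left out (adjusted p up to 0.0503). Of 31 genes of ER translocation and signal peptide processing, 2 rose (6.45%, near the share of all genes) and none fell, with 0 to 2 higher with 1 library left out. With the block 7 rose and 1 fell.

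The ER stress response element, searched as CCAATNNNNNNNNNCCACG on both strands, was in 0.119% of all windows and in 0.175% of the tested genes with a window. It was in 9 of the 39 folding genes that have a window. Of these 9, *Hsp90b1*, *Calr* and *Dnajc3* passed the test with all libraries, the last a call lost with DMSO replicate 3 or GSK343 replicate 1 or 3 left out (adjusted p up to 0.0880), and *Hspa5*, *Canx*, *Pdia6*, *Creld2*, *Syvn1* and *Derl3* did not pass the test. The promoters of the 2 genes with the largest gain in level are shown, with the matches in capitals. The window of *Hsp90b1* is chr10:86705395-86705694, minus strand, with 2 matches, and that of *Calr* is chr8:84846882-84847181, minus strand, with 1 match that begins 162 bases before the start (GRCm38.p6).
*Hsp90b1*: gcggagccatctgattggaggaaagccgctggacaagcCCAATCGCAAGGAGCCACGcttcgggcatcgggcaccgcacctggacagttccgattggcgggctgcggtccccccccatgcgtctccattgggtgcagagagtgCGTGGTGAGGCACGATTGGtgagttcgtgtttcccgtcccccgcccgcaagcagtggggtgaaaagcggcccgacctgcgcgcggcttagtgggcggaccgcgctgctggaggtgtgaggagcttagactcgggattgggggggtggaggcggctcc
*Calr*: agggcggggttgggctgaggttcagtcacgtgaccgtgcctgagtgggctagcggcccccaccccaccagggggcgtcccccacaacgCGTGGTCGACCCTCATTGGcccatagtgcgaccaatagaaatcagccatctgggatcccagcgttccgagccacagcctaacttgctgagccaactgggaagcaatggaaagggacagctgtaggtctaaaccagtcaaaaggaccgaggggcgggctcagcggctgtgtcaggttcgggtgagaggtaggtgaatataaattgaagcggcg

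Lysosomal genes were called higher more often than lower. Of 50 genes of lysosome and autophagy tested, 14 rose (28%, against 7.90% of all genes) and 1 fell (2%, against 5.0%). The median log2 fold change was 0.17, and 10 to 15 rose with 1 library left out. With the replicate block 25 rose and 2 fell, where 13.7% of all genes rose and 10.9% fell. *Gpnmb*, a glycoprotein of lysosomes and melanosomes, rose from 1.77, 1.46 and 1.81 to 7.59, 6.78 and 6.91 RPKM (log2 1.93 ± 0.10 SE, adjusted p = 2.17e-06). The cysteine proteases *Ctsh* and *Ctsc* rose, *Ctsh* from 30.6, 25.8 and 31.4 to 45.05, 54.9 and 45.6 RPKM (log2 0.73 ± 0.08 SE, adjusted p = 3.23e-04) and *Ctsc* by a log2 of 0.67 ± 0.06 SE, adjusted p = 1.26e-04. No GSK343 library reached down to the DMSO range in these genes.

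*Hexa*, a subunit of the hexosaminidase that degrades gangliosides, rose from 24.8, 32.4 and 28.3 to 43.9, 49.4 and 47.8 RPKM (log2 0.72 ± 0.09 SE, adjusted p = 6.62e-04). *Lipa*, the lipase that frees cholesterol from its esters in the lysosome, rose from 11.5, 12.8 and 12.2 to 15.6, 15.2 and 15.7 RPKM (log2 0.34 ± 0.05 SE, adjusted p = 8.76e-04). *Grn*, progranulin, and *Psap*, the precursor of the saposins, rose by log2 fold changes of 0.55 and 0.28. The aspartic protease *Ctsd* rose by a log2 of 0.32 ± 0.09 SE, adjusted p = 0.0408, a call lost with DMSO replicate 1 or 3 or GSK343 replicate 1, 2 or 3 left out (adjusted p up to 0.138). *Atg16l2*, a relative of an autophagy factor, fell by a log2 of 0.36.

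The CLEAR element, through which the factor TFEB acts on lysosomal genes, was searched as TCACGTGA, which reads the same on both strands. It was in 0.974% of all windows and in 2.39% of the tested genes with a window. Of 39 lysosome and autophagy genes with a window, 5 held it. *Ctsd* and *Mcoln1*, a lysosomal calcium channel, rose among these, *Mcoln1* with a call lost with GSK343 replicate 1 left out (adjusted p up to 0.0547), and *Ctsa*, *Gla* and *Atg3* did not pass. The *Ctsd* window (chr7:142387778-142388077, minus strand, GRCm38.p6) is shown for the match in capitals, which begins 99 bases before the start. No match of any of the motifs searched overlapped a match of another.
*Ctsd*: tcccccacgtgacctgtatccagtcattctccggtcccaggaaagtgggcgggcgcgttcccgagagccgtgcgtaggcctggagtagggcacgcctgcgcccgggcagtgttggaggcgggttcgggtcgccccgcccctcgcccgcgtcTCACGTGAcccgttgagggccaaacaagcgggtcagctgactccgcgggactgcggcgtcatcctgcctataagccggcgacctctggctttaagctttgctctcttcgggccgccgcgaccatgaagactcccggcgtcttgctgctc

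The receptors of the cytokines in the culture are given for the disagreement between the labels and the protocol. *Il5ra*, the IL-5 receptor chain, fell from 15.4, 25.4 and 15.3 to 7.64, 11.2 and 9.32 RPKM (log2 -0.95 ± 0.23 SE, adjusted p = 0.0181), a call lost with DMSO replicate 2 or GSK343 replicate 1 or 3 left out (adjusted p up to 0.0777). *Il6ra*, the IL-6 receptor chain, rose from 3.35, 2.82 and 3.04 to 4.89, 3.62 and 3.80 RPKM (log2 0.38 ± 0.11 SE, adjusted p = 0.0448), a call lost with DMSO replicate 1, 2 or 3 or GSK343 replicate 1 or 3 left out (adjusted p up to 0.168), and *Il6st*, the signalling chain gp130, rose from 28.1, 29.1 and 26.04 to 38.9, 34.9 and 34.5 RPKM (log2 0.38 ± 0.08 SE, adjusted p = 0.00793). *Il2rb*, the shared chain of the IL-2 and IL-15 receptors, rose from 6.41, 9.62 and 6.26 to 15.9, 23.7 and 18.2 RPKM (log2 1.35 ± 0.21 SE, adjusted p = 0.00206), whereas *Il2ra* did not pass (adjusted p = 0.640). Of 32 receptors and ligands tested, 5 rose (15.6%, against 7.90% of all genes) and 3 fell (9.38%, against 5.0%). With 1 library left out 3 to 5 rose, the fewest without DMSO replicate 1, GSK343 replicate 1 or GSK343 replicate 3.

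Among STAT targets, *Socs2*, a feedback inhibitor that STAT5 induces, rose from 18.5, 20.9 and 20.1 to 33.2, 34.2 and 34.1 RPKM (log2 0.76 ± 0.06 SE, adjusted p = 3.42e-05). *Cish*, another STAT5 target, was at 21.5, 31.5 and 25.4 RPKM with DMSO and 26.5, 34.9 and 28.3 RPKM with GSK343, with overlapping groups (adjusted p = 0.689). *Socs3*, the feedback inhibitor that STAT3 induces after IL-6, was at 9.61, 9.55 and 8.08 and 8.19, 11.4 and 8.83 RPKM (log2 0.05 ± 0.17 SE, adjusted p = 0.895), and *Bcl3* did not pass either (adjusted p = 0.659). *Stat6*, the mediator of IL-4 signals, fell by a log2 of 0.55 (adjusted p = 3.78e-04), and exons of *Nab2* overlap it on the opposite strand.

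Adhesion genes were called mostly higher. Of 35 tested, 8 rose (22.9%, against 7.90% of all genes) and *Pecam1* fell (2.86%, against 5.0%), with a median log2 fold change of 0.17. *Itgb7*, the integrin chain that pairs with *Itga4* to bind the mucosal addressin, rose from 2.10, 3.68 and 2.62 to 4.72, 8.69 and 5.51 RPKM (log2 1.09 ± 0.20 SE, adjusted p = 0.00511), and *Itga4* from 53.6, 58.3 and 47.2 to 75.4, 73.6 and 72.6 RPKM (log2 0.48 ± 0.10 SE, adjusted p = 0.00719). *Cd44*, the hyaluronan receptor, rose from 68.9, 70.5 and 63.3 to 93.7, 90.2 and 95.6 RPKM (log2 0.46 ± 0.08 SE, adjusted p = 0.00375). *Itgb1* and *Itgav* rose by log2 fold changes of 0.35 and 0.39. *Pecam1* fell by a log2 of 0.52 (adjusted p = 0.0116), lost with GSK343 replicate 1 left out (adjusted p up to 0.0540).

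Of 54 genes of the actin cytoskeleton, 9 fell (16.7%, against 5.0% of all genes) and 5 rose (9.26%, near the 7.90% of all genes). With 1 library left out 4 to 10 fell, with 4 without GSK343 replicate 1 and 5 without GSK343 replicate 3, and 4 rose without DMSO replicate 2 and 3 without any other. *Cnn2*, a calponin, fell from 36.9, 33.2 and 35.5 to 19.6, 23.8 and 22.2 RPKM (log2 -0.68 ± 0.07 SE, adjusted p = 1.90e-04), and *Marcksl1*, a membrane-bound actin regulator, from 23.9, 19.6 and 20.99 to 11.4, 13.8 and 14.02 RPKM (log2 -0.71 ± 0.10 SE, adjusted p = 8.87e-04). *Lcp1*, the leukocyte actin bundler, fell by a log2 of 0.51. The intermediate filament gene *Vim* rose by a log2 of 0.42 ± 0.07 SE, adjusted p = 0.00291. *Gsn*, gelsolin, which severs actin filaments, was at 1.29, 1.51 and 1.03 RPKM with DMSO and 1.65, 3.004 and 1.57 RPKM with GSK343 (log2 0.57 ± 0.23 SE, adjusted p = 0.130), and rose under the replicate block (adjusted p = 0.00407). *Fyn*, a Src family kinase, rose from 21.02, 20.03 and 21.7 to 39.1, 32.6 and 36.7 RPKM (log2 0.78 ± 0.07 SE, adjusted p = 1.26e-04).

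Ion pumps, channels and carriers had 7 of 30 members higher (23.3%, against 7.90% of all genes) and 2 lower (6.67%, against 5.0%). With 1 library left out 4 to 8 rose, with 4 without GSK343 replicate 1, and 1 fell except without GSK343 replicate 2. *Atp1b1* (chr1:166367398-166388486), the β subunit of the sodium-potassium pump, rose from 58.02, 64 and 54.4 to 128, 105 and 123 RPKM (log2 1.01 ± 0.13 SE, adjusted p = 7.18e-04), with no overlap between the groups. *Itpr3*, a calcium channel of the ER, fell from 34.5, 38.7 and 35.4 to 24.9, 28.4 and 24.1 RPKM (log2 -0.49 ± 0.07 SE, adjusted p = 0.00103). Of 28 genes of the Wnt, Notch, TGF-β and Hedgehog pathways tested, 6 rose (21.4%, against 7.90% of all genes) and none fell. With 1 library left out 3 to 5 rose, with 3 without DMSO replicate 3. Among members with a mean of at least 1 RPKM over Pb 3 of 21 rose, and with 3 RPKM in place of 1 in the filter on all libraries 2 of 19 did. The Wnt co-receptor *Lrp5* rose from 0.435, 0.505 and 0.444 to 1.13, 1.09 and 1.13 RPKM (log2 0.94 ± 0.10 SE, adjusted p = 2.57e-04), and *Smad1*, the transducer of BMP signals, from 0.309, 0.682 and 0.374 to 1.09, 1.30 and 0.969 RPKM (log2 0.99 ± 0.21 SE, adjusted p = 0.0111).

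Developmental transcription factors are the best known targets of PRC2, and most stayed under the filter on expression, which runs over all 15 libraries. Of 138 in the table, 10 were tested, and 5 of these had a mean of at least 1 RPKM over Pb. *Pbx3* alone was called higher (10% of those tested, against 7.90% of all genes). It rose from 1.54, 1.49 and 1.41 to 2.42, 2.13 and 2.24 RPKM (log2 0.54 ± 0.13 SE, adjusted p = 0.0155), a call lost with DMSO replicate 3 or GSK343 replicate 1 or 3 left out (adjusted p up to 0.0657). Of the 10, edgeR called 3 higher, limma on the Pb libraries alone 3, and the replicate block 2 higher and 1 lower. The 26 neuronal and synaptic genes tested had 5 higher (19.2%, against 7.90% of all genes) and 1 lower (3.85%, against 5.0%). The rises numbered 3 without GSK343 replicate 1 or 3. *Shank1*, a postsynaptic scaffold, rose at a low level from 0.197, 0.287 and 0.213 to 0.608, 0.890 and 0.812 RPKM (log2 1.08 ± 0.15 SE, adjusted p = 0.00107). Of the 893 genes that rose, 16 passed the filter on expression only through the GSK343 libraries.

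The cell cycle machinery gave few calls. Of 54 DNA replication genes, 2 fell (3.70%, against 5.0% of all genes). Of 64 genes of mitosis and cytokinesis, 1 rose (1.56%, against 7.90%). With the replicate block 4 replication genes rose and 5 fell, and 2 mitosis genes rose and 5 fell, where 13.7% of all genes rose and 10.9% fell. Inhibitors of the cycle moved both ways. *Cdkn1b*, which encodes p27, fell from 52.6, 56.9 and 48.7 to 34.2, 37.5 and 33.2 RPKM (log2 -0.59 ± 0.10 SE, adjusted p = 0.00274). *Cdkn1a*, which encodes p21, rose from 12.4, 16.5 and 16.1 to 22.4, 28.5 and 26.2 RPKM (log2 0.77 ± 0.19 SE, adjusted p = 0.0182), a call lost with DMSO replicate 1 or GSK343 replicate 2 or 3 left out (adjusted p up to 0.0762). *Rgcc*, a regulator of the cell cycle that complement induces, rose from 33.5, 31.3 and 38.9 to 63.9, 56.6 and 55.04 RPKM (log2 0.76 ± 0.12 SE, adjusted p = 0.00235), with all GSK343 libraries above all DMSO libraries.

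Of 29 genes of the BCL2 family and death receptors, 3 rose (10.3%, near the 7.90% of all genes) and 4 fell (13.8%, against 5.0%). The falls numbered 1 without DMSO replicate 1, 2 without GSK343 replicate 1 and 3 to 5 without any other library. *Bcl2l11* (chr2:127951774-127988283), which encodes the death-inducing protein BIM, rose from 37.9, 33.96 and 40.8 to 94.2, 71.9 and 88.7 RPKM (log2 1.17 ± 0.12 SE, adjusted p = 1.74e-04). The survival gene *Bcl2a1d* fell from 20.1, 16.7 and 18.6 to 9.91, 15.1 and 12.6 RPKM (log2 -0.57 ± 0.13 SE, adjusted p = 0.0144), lost with DMSO replicate 1 or GSK343 replicate 1 left out (adjusted p up to 0.0608). *Bcl2a1a* fell by a log2 of 0.70, lost with DMSO replicate 1 left out (adjusted p up to 0.0507). Both are near-identical copies between which reads could be split, so the values of each are uncertain.

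Interferon-stimulated genes gave few calls without the replicate block and many with it. Of 56 tested, 2 rose and 2 fell (3.57% each, against 7.90% and 5.0% of all genes), with a median log2 fold change of -0.19. With the replicate block 6 rose and 24 fell, against 13.7% and 10.9% of all genes. *Isg15*, a ubiquitin-like modifier, was at 44.3, 88.96 and 53.3 RPKM with DMSO and 26.2, 56.4 and 29.1 RPKM with GSK343 (log2 -0.76, adjusted p = 0.124, and 0.00180 with the block). In each group replicate 2 was highest, and each GSK343 library was below the DMSO library of its number. *Irf7*, a regulator of the response, was at 30.6, 41.4 and 31.4 and 17.9, 23 and 18.9 RPKM (adjusted p = 0.163, and 0.00702 with the block). *Oasl1*, an inhibitor of *Irf7* translation, fell from 14.3, 14.1 and 16.5 to 9.39, 10.5 and 10.7 RPKM (log2 -0.55 ± 0.08 SE, adjusted p = 0.00181), and *Ifit1* rose at a low level from 1.19, 1.02 and 0.783 to 1.64, 1.90 and 1.97 RPKM (log2 0.75 ± 0.16 SE, adjusted p = 0.0105). The interferon response element, searched as GAAANNGAAA on both strands, was in 3.44% of windows and in 3.955% of the tested genes with a window. It was in 22 of 40 members with a window, of which *Ifit1* rose and 21 did not pass.

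Several lists gave few calls, where 7.90% of all genes rose and 5.0% fell. Of 80 cytosolic ribosomal proteins, 1 fell, and of 75 oxidative phosphorylation subunits, 1 rose. Of 40 proteasome subunits, none passed in limma or edgeR (3 at an unadjusted p under 0.05, and 8 rose with the replicate block). The log2 fold change was below 0 for 63 ribosomal members (median -0.037) and above 0 for 63 oxidative phosphorylation members (median 0.076). With the block 2 ribosomal members fell, and 7 oxidative phosphorylation members rose and 1 fell. Of 45 NF-kB and AP-1 genes, 2 rose and 1 fell, and the T and NK cell list had 1 of 25 members higher. The erythroid, megakaryocyte and mast cell list had none of 8 in either direction (none at an unadjusted p under 0.05, and none in edgeR).

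Further lists had 5 calls or fewer, where 7.90% of all genes rose and 5.0% fell. MHC class II presentation had 1 of 17 members higher and 1 lower, and 6 lower with the block, or 3 with the block on the Pb libraries alone. *H2-Ob*, which restrains peptide loading, fell by a log2 of 0.88 (adjusted p = 0.0199), a call lost with DMSO replicate 2 or 3 or GSK343 replicate 1 or 3 left out (adjusted p up to 0.0810). Of 18 genes of the class switch list, 1 fell, and the dendritic cell list had 1 higher and 1 lower of 14. Of 25 LPS sensing genes, 3 rose (12%) and 2 fell (8%), and 1 to 2 rose and 0 to 2 fell with 1 library left out. *Cd180*, a Toll-like receptor homologue of B cells, rose from 14.3, 13.3 and 13.1 to 19.3, 18.2 and 19.5 RPKM (log2 0.48 ± 0.05 SE, adjusted p = 2.57e-04), with exons of *Mast4* overlapping it on the opposite strand.

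**Figure D4:**
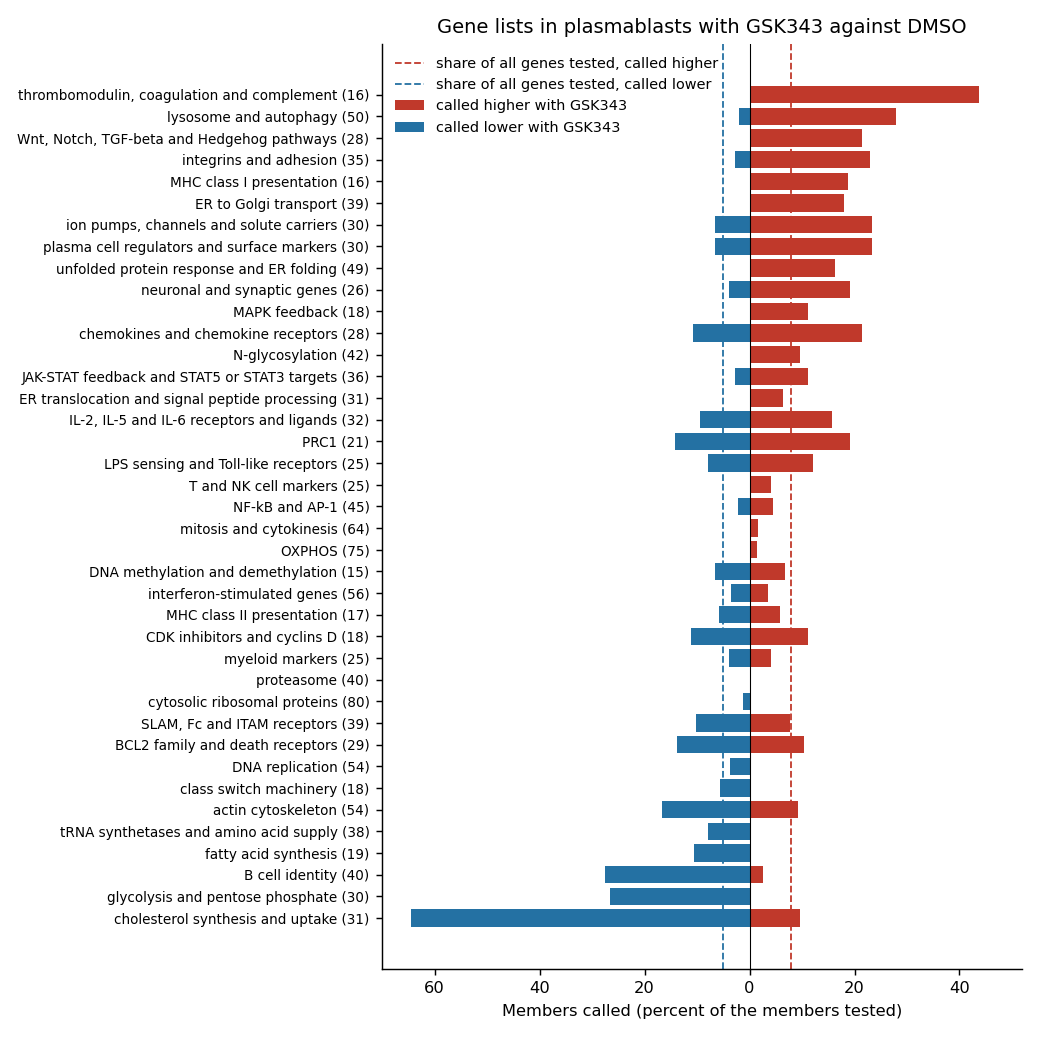
Percent of the tested members of each list (number tested in brackets; lists of at least 15) called higher (right) or called lower (left) with GSK343, with dashed lines at the share of all genes tested (7.90% and 5.0%). Cholesterol synthesis reaches furthest to the left (20 of 31) and the thrombomodulin, coagulation and complement list furthest to the right (7 of 16).

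The effect in Pb was set beside that in actB, where 926 genes rose (8.20%) and 244 fell (2.16%). Of the 893 and 565 genes called in Pb, 465 and 124 were also called in the same direction in actB. The difference between the effects was tested as an interaction and passed for 28 genes (0.248%), 11 of them higher and 17 lower in Pb relative to actB, and 1017 at an unadjusted p under 0.05. This count was 222 with the replicate block, 58 without GSK343 replicate 2, and 0 to 2 without any other single Pb library. Where it was 0, without DMSO or GSK343 replicate 3, limma gave 907 and 758 at an unadjusted p under 0.05. Since the labels of the Pb GSK343 libraries name Il6, cell type and a change of cytokine cannot be told apart in the interaction. *Bank1* fell in Pb and was at a log2 of -0.06 ± 0.14 SE in actB (difference -1.23 ± 0.20 SE, adjusted p = 0.0328). *Samsn1*, an adaptor that restrains B cell activation, rose in Pb from 17.1, 15.8 and 17.6 to 30.8, 25.4 and 31.1 RPKM and was at a log2 of 0.00 in actB (difference 0.78 ± 0.12 SE, adjusted p = 0.0279). *Myb*, a transcription factor that guides the migration of plasma cells, rose from 8.37, 7.33 and 8.31 to 15.4, 12.6 and 13.1 RPKM in Pb and was at -0.08 ± 0.09 SE in actB (difference 0.83 ± 0.12 SE, adjusted p = 0.0279). *Socs2* rose in both cell types and more in actB, at a log2 of 1.44 ± 0.06 SE (difference -0.67 ± 0.08 SE, adjusted p = 0.0272). For *Hmgcs1*, *Pax5*, *Sdc1* and *Ccl3* the difference did not pass (adjusted p = 0.397, 0.163, 0.325 and 0.979).

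**Figure D5:**
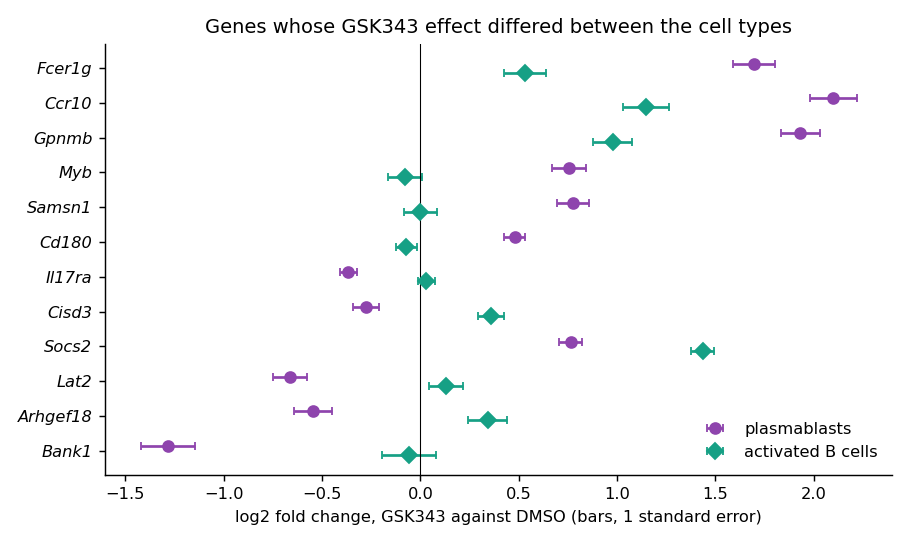
Log2 fold changes of GSK343 against DMSO ± 1 SE in Pb and in actB for 12 genes whose effects differed between the cell types. *Ccr10*, *Gpnmb* and *Fcer1g* are higher in both and more so in Pb, and *Socs2* is higher in both and more so in actB.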

How the data were processed

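PolyA RNA of 15 libraries was prepared with a stranded kit and sequenced as 50 bp paired-end reads. The authors mapped the reads to mm9 with TopHat2, counted those over exons of each Entrez gene, and deposited RPM (reads per 1000000 counted reads) per library. Dividing RPM by the step that 1 read makes gave whole reads within 0.05 for all genes of each library, which edgeR used. RPM was turned into RPKM with the deposited gene lengths. The 2 nB libraries numbered 1 and 2 were the same library and were merged, leaving 14. Genes of at least 1 RPKM in at least 3 of the 15 columns were fitted over all 5 groups with limma 3.58.1 in R 4.3.3 (trended eBayes, two-sided, Benjamini-Hochberg over 11299 genes) on log2(RPKM + 0.25), a scale that understates changes of low genes. Adjusted p-values are from that fit, which has no replicate block, unless the block, another alternative or edgeR 4.0.16 (quasi-likelihood, TMM, recovered reads) is named. The scripts were tested on simulated data.

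Deviations from the group mean of same-numbered libraries correlated at 0.158 to 0.713 over 18 pairs of cultured libraries, and those of different numbers at -0.603 to 0.370. The ranges overlapped. In Pb, GSK343 replicate 1 correlated at 0.158 with DMSO replicate 1 and at 0.139 with DMSO replicate 3. GSK343 replicate 3 correlated at 0.280 with DMSO replicate 3 and at 0.074 with DMSO replicate 1, and the replicates 2 at 0.435. The pairing of GSK343 replicate 1 in Pb is thus hardly shown by these values. The numbers are those of the sample titles. A fit with the number as a block was run beside the unblocked fit. Exact permutation of 3 against 3 libraries cannot reach p = 0.05.

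Alternatives were other pseudocounts, filters and scalings, the Pb libraries alone, no trend, all 15 columns, and each Pb library left out. Leaving out the libraries numbered 2 from the cultured groups was added after the data were seen. The genes, lists and tests were chosen with earlier results of these data known. Named genes were those the study names, the 20 largest rises and 12 largest falls among called genes of at least 2 RPKM and 200 bases without overlap, the 5 largest gains and losses in RPKM, up to 4 called members of each list, markers and receptors of the culture, and genes called in the interaction. Genes outside this rule were named after their values were seen, among them most of the cholesterol, lysosome and integrin genes given. Exon overlaps and mm9 positions are from GENCODE vM1, and promoter windows from RefSeq (GRCm38.p6), with 8572 of the tested genes matched. Intervals from counting were not used. Some genes are not reported here.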

Additional observations from a re-analysis of the deposited data

Results flagged for a closer look

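For 12 genes called in Pb the effect of GSK343 differed from that in actB by the interaction term of limma (adjusted p under 0.05), where 28 of 11299 genes (0.248%) passed. These calls rested on all libraries. With 1 Pb library other than GSK343 replicate 2 left out, 0 to 2 of all genes passed. On log2(RPKM + 0.25), the effect was larger in Pb by 0.96 for *Ccr10* and 0.95 for *Gpnmb*. For *Fcer1g* it was larger by 1.17 ± 0.15 SE, adjusted p = 0.0272, and all 3 genes rose in both cell types. In actB the mean level of *Ccr10* went from 0.363 to 1.10 RPKM and that of *Gpnmb* from 0.172 to 0.582 RPKM. Such levels lie near the added 0.25, which understates the change in actB. Its part in the differences of these 2 genes was not tested. *Myb*, *Samsn1* and *Cd180* rose in Pb and did not pass in actB, with differences of 0.83, 0.78 and 0.55. *Bank1* and *Lat2*, a membrane adaptor, fell in Pb and did not pass in actB, with differences of -1.23 and -0.79. *Il17ra* fell in Pb and was at a log2 of 0.03 in actB, a difference of -0.40. *Cisd3*, an iron-sulphur protein of mitochondria, and *Arhgef18* fell in Pb and rose in actB, with differences of -0.64 and -0.89, and the call of *Cisd3* in Pb was lost with DMSO replicate 3 or GSK343 replicate 1 or 3 left out (adjusted p up to 0.0703). *Socs2* rose in both and less in Pb, with a difference of -0.67. By the Il6 label of the Pb GSK343 libraries, cell type and a change of cytokine cannot be told apart in these differences.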

How the results depend on the processing

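The counts in Pb (893 higher, 565 lower, interaction 28) stayed within 1.5 times under both pseudocounts, both filters, the filter on Pb means, median scaling, no trend, the Pb libraries alone and edgeR. The exceptions are these. With the replicate block 1553 rose, 1227 fell and 222 differed between cell types, and with the block in edgeR 1550, 1430 and 287. Quantile normalization gave 18 for the interaction and all 15 columns 48. Without the libraries numbered 2, 850 fell and 146 differed. Leaving out 1 Pb library gave 472 to 785 higher, 218 to 519 lower and 0 to 58 for the interaction. Without GSK343 replicate 3, 472 rose and 218 fell, without GSK343 replicate 1, 486 and 255, without DMSO replicate 1, 533 and 286, and without DMSO replicate 3, 325 fell. The cause was not tested beyond the smaller number of libraries. Of 232 named genes none reversed under any alternative. The block in the fit of all groups ended no call, the block on the Pb libraries alone ended 28 and the block in edgeR 1 of 229. The Pb libraries alone ended 42, leaving out the libraries numbered 2 ended 10, the absence of a filter 33, quantile normalization 25, no trend 16, edgeR 11 of 229, median scaling 10, the pseudocounts 4 and 5, and leaving out 1 library 24 to 77. The interaction could not be fitted with the Pb libraries alone.

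Each group holds 3 libraries. Of the genes called, 115 of those that rose and 26 of those that fell stayed under 2 RPKM in both groups.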

Other observations

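Some genes were chosen after their values were seen, with no list or count behind them. *Bnip3*, a mitophagy receptor, was at 52.4, 47.4 and 43.9 RPKM in the DMSO libraries and 14.4, 36.2 and 24.1 RPKM with GSK343 (log2 -1.03, adjusted p = 0.0583, and 0.0125 with the replicate block). *Aldoc*, an aldolase, was at 18.1, 29.4 and 18.2 and 4.31, 14.6 and 7.05 RPKM (adjusted p = 0.0642, 2.50e-04 with the block), and *Slc16a3*, a lactate exporter, at 40.7, 45.3 and 34.7 and 11.7, 37.4 and 18.9 RPKM (adjusted p = 0.0906, 0.00922 with the block). In these genes GSK343 replicate 2 lay nearest to the DMSO libraries. *Ankrd37* fell without the block from 16.6, 17.1 and 15.6 to 5.55, 13.4 and 7.58 RPKM (log2 -0.97 ± 0.24 SE, adjusted p = 0.0211), a call lost with DMSO replicate 1, 2 or 3 or GSK343 replicate 1 or 3 left out (adjusted p up to 0.0788).

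*Ftl1*, the light chain of the iron store, went from 1086, 1032 and 1215 to 1514, 1354 and 1549 RPKM (log2 0.41 ± 0.10 SE, adjusted p = 0.0208), the largest gain in RPKM of any called gene, and was lost with DMSO replicate 1 or 2 or GSK343 replicate 1 or 3 left out (adjusted p up to 0.0836). *Fth1*, the heavy chain, went from 277, 256 and 278 to 328, 296 and 329 RPKM (log2 0.23 ± 0.06 SE, adjusted p = 0.0168), lost with DMSO replicate 2 or GSK343 replicate 1 or 3 left out (adjusted p up to 0.0768). *Glrx*, a glutaredoxin, rose from 74.5, 87.02 and 75.5 to 123, 139 and 128 RPKM (log2 0.72 ± 0.13 SE, adjusted p = 0.00492) in every fit with a library left out.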
